A study of Mus musculus with 10 samples.

Results

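The replication-dependent histone genes of the mouse were followed in sorted haematopoietic stem cells of Dhx16 knockout and control libraries. Dhx16 is a helicase with a DEAH motif that works in the spliceosome. Members were all protein-coding genes of the deposited table whose symbol started with Hist1h, Hist2h, Hist3h or Hist4h, which gave 67 of the 52097 genes listed. They comprise 6 genes for the linker histone H1, 18 for H2A, 18 for H2B, 12 for H3 and 13 for H4. The 5 knockout libraries carry the genotype label KO and the sample title Dhx16_CKO, and the 5 control libraries carry the genotype label WT and the title Dhx16_fl. Dhx16_fl and Dhx16_CKO are the only allele names given. The Cre driver, the exons removed, and the age and treatment of the mice are not given in the sources used here, nor is whether each library came from a different animal, so p-values measure only the spread between these libraries. About 5000 lineage-negative bone marrow cells positive for Sca-1, c-Kit and CD150 and negative for CD48, a gate used for stem cells, went into each Smart-Seq V4 library.

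Histones of this family are made in bulk while DNA is copied, when new chromatin has to be packed. Their mRNAs differ from nearly all others: the genes lack introns, and the transcript usually ends just after a short stem-loop and carries no poly(A) tail. Stem-loop binding protein (Slbp) holds that stem-loop, the U7 small nuclear ribonucleoprotein pairs with bases downstream, and the endonuclease Cpsf3 cuts between them. When DNA replication stops, the mRNA receives a short oligo(U) tail and is destroyed. Some of the genes also have an ordinary poly(A) signal further downstream and are known to give polyadenylated mRNA, mostly in cells that have left the cell cycle. Haematopoietic stem cells divide rarely. The library kit primes on poly(A) tails, so a histone mRNA without a tail is copied poorly if at all.

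The signals at the 3' ends divide the family. A stem-loop was searched within 150 bases after the stop codon as 6 bases starting GG, a loop of 4 bases starting TT, and 6 bases pairing fully with the first 6. The annotated transcript (GENCODE M21) had the 16 or more bases after the stop codon that the element needs in 52 of the 67 members. The element was found in 43 of these, and in 9 other protein-coding genes (0.043%). The sequence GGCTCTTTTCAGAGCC was the most common and stood in 25 members. The sites shown come from Hist1h1c, Hist3h2a and Hist2h4, which were lower in KO libraries, from Hist4h4, which was too low to test, and from 4 members that were higher in KO libraries. They are set together because near-identical elements stand in members of either direction. Capitals mark the 16 bases of the element.
Hist1h1c: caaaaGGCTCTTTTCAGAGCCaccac
Hist3h2a: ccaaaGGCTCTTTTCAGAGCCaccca
Hist2h4: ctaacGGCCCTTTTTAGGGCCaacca
Hist4h4: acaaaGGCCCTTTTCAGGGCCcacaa
Hist1h2ap: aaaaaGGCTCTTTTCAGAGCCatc
Hist1h2ao: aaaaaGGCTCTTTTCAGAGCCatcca
Hist2h2ac: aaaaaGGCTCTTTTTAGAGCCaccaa
Hist1h4d: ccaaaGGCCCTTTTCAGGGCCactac

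The poly(A) signal AATAAA, searched on the transcript strand in the last 60 bases of the longest annotated coding transcript, stood in 14 of the 67 members, against 59.9% of all coding genes. The sites shown are those of the 5 members with this signal that were lower in KO libraries, and of Hist4h4. Capitals mark the signal.
Hist1h1c: cttctAATAAAaagcgtttagt
Hist2h2be: ttattAATAAAgttaccgatta
Hist3h2a: tgcccAATAAAataagagtacg
Hist3h2ba: gtattAATAAAtttggttcaat
Hist4h4: gatgaAATAAAtac
Hist2h4: cataaAATAAAatcttaaaaac
The annotated transcript was 1000 bases or longer in 18 of the 67 members, against 88.4% of all coding genes, and 62 members had a single exon. Hist1h2bc was annotated otherwise, with 2 exons and a splice junction 9 bases after its stop codon, and no stem-loop or AATAAA was found in the windows searched.

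FPKM (fragments scaled to transcript length and to library size) summed to 877099 to 966648 in KO libraries and 770789 to 957520 in WT libraries, and read counts per library were not used here. Dhx16 itself averaged 9.49 ± 1.56 FPKM in KO libraries and 17.5 ± 3.81 FPKM in WT libraries (SD, n = 5 each). It fell by 0.81 on the log2(FPKM + 1) scale without overlap between the groups. Its transcript was still at 7.1 to 10.9 FPKM in the KO libraries. Of 8 erythroid markers all 8 rose, with sums of 753 to 1177 FPKM in KO libraries and 120 to 397 FPKM in WT libraries, and all 4 globins rose too. All 8 megakaryocyte markers and all 6 macrophage markers fell. Of 8 stem cell markers 6 fell, and their sum was 412 to 642 FPKM in KO libraries and 587 to 869 FPKM in WT libraries. Shares over all genes tested were 13.4% higher and 36.4% lower. No marker of these lists was at 0 in every library. Granulocyte genes summed to 8348 to 40842 FPKM in KO libraries and 9623 to 74169.6 FPKM in WT libraries, and bone matrix genes to 4549 to 47777.5 FPKM in KO libraries and 3179.8 to 65870.5 FPKM in WT libraries. Limma called 0 of the 6 genes of either list (2 granulocyte genes and 0 bone matrix genes at an unadjusted p under 0.05), as did the authors' deposited table. The erythroid score did not overlap between the genotypes, so erythroid content and genotype cannot be told apart, and the part of the other lists in the histone values was not tested. In bulk samples, fewer cells of a type and less RNA per cell cannot be told apart either.

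Within this family the direction depended on the gene. Of the 67 members, 52 had at least 1 FPKM in 5 or more libraries and were tested with limma, and changes are KO minus WT on the log2(FPKM + 1) scale. In KO libraries 15 members rose and 10 fell at a Benjamini-Hochberg adjusted p under 0.05 over all 13448 genes tested, while 27 did not pass. Over all genes tested 13.4% rose and 36.4% fell, 49.7% in all, and among tested members 28.8% rose and 19.2% fell. The groups did not overlap, with KO above WT, for 4 members and 7.76% of all genes, and with KO below WT for 9 members and 25.1% of all genes. With a stricter limit of 10 FPKM 23 members were tested, of which 9 rose and 6 fell, against 21.1% and 31.6% of the genes tested at that limit. The median change was 0.19 over tested members and -0.26 over all genes tested. Under each of 4 scalings of the libraries 12 of the 15 rises and all 10 falls were called. The exceptions were Hist1h2bj, Hist1h3g and Hist1h4d. The 10 falls and the 9 members with KO below WT include Hist2h4, which was tested through WT libraries alone and had to be lower. The 15 rises include Hist1h4b, which reached the limit in 4 KO libraries and only 1 WT library. Leaving out the library CKO7 or CKO8 left 8 rises, and leaving out WT3 and WT5, the libraries highest in granulocyte genes, left 9. With an erythroid score as covariate 0 of the 13448 genes were called by limma, and 1749 genes and 11 members had an unadjusted p under 0.05. The 15 members not tested averaged 0.022 to 1.197 FPKM over all libraries.

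**Figure D1:**
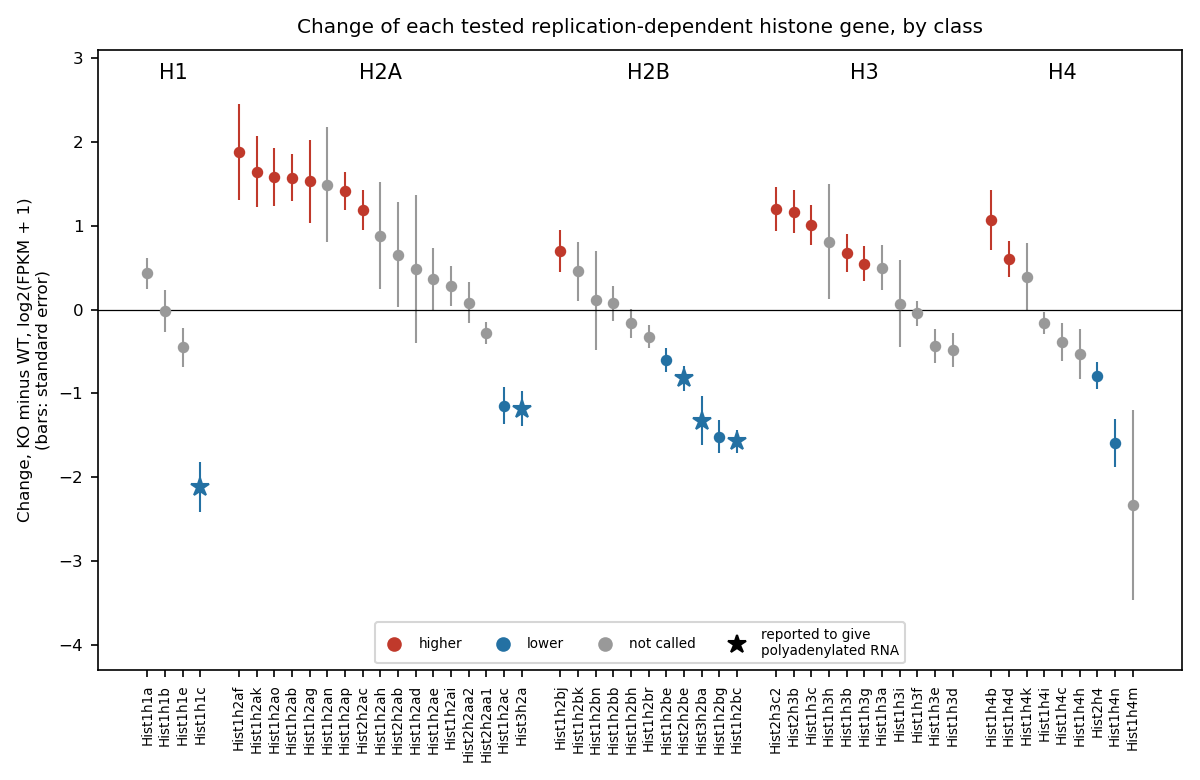
Change of each of the 52 tested members, KO minus WT on the log2(FPKM + 1) scale, grouped by histone class and ordered within each class; points are estimates, bars are standard errors, colours give the call, and stars mark genes reported to give polyadenylated RNA. All 5 stars lie below 0, and 7 of the 17 tested H2A genes are called higher, against 13.4% of all genes tested.

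Genes reported to give polyadenylated RNA were lower in KO libraries, while the remaining members pointed both ways. The reported set was Hist1h2bc and Hist1h1c, with Hist2h2be, Hist3h2a, Hist3h2ba and Hist4h4 added from general knowledge of these genes. The set was chosen with earlier results of these data known, so its shared direction is given as a description. Polyadenylation was not measured by these data. Of the 6 genes, 5 were tested and all 5 fell, with a median change of -1.32. Shares over all genes tested were 13.4% higher and 36.4% lower. Of the 61 remaining members 47 were tested, of which 15 rose and 5 fell, Hist2h4 among the latter, with a median change of 0.39. The rises were 8 without CKO7 or without CKO8, and the falls were 8 without CKO7. Relative to the median of all genes, the medians were -1.06 and 0.65, and under the other 3 scalings they stayed between -1.08 and -1.05 for the reported set and between 0.65 and 0.66 for the remaining members. Before that subtraction the median of the remaining members was less steady, at 0.23 without CKO7, 0.22 without CKO9, 0.11 with no filter, 0.88 with the limit of 10 FPKM, 0.20 with a pseudocount of 5, 0.61 with median-of-ratios scaling, 0.074 with the erythroid covariate and -0.033 once covariates for bone matrix and for granulocyte genes were fitted. Each of the 5 falls of the reported set passed with any single library left out, and also without CKO13 and WT6 and without WT3 and WT5. Values per library follow in the order CKO7, CKO8, CKO9, CKO12 and CKO13 for KO libraries and WT2 to WT6 for WT libraries.

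Hist1h2bc (ENSMUSG00000018102, chr13:23684199-23692908, mm10, + strand), which encodes an H2B protein, had 22.0, 21.8, 18.5, 31.1 and 25.7 FPKM in KO libraries, against 68.4, 64.8, 84.3, 70.7 and 71.9 FPKM in WT libraries. Every KO library lay below every WT library, and the means were 23.8 ± 4.82 FPKM in KO and 72.0 ± 7.38 FPKM in WT libraries (SD, n = 5 each), a ratio of 0.331. The change was -1.57 (SE 0.13, limma adjusted p = 1.80e-05), or -1.31 relative to the median of all genes. Hist1h1c (ENSMUSG00000036181, chr13:23738808-23740367, + strand) encodes a linker histone, which sits on the DNA between nucleosomes. It had 28.3, 27.2, 14.5, 45.7 and 23.2 FPKM in KO libraries, against 123, 142, 64.7, 136 and 139 FPKM in WT libraries. The groups did not overlap here either, WT4 was the low library among the WT, and the change was -2.12, the lowest among members called (SE 0.29, limma adjusted p = 0.000289).

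Hist3h2a and Hist3h2ba lie together on chromosome 11, apart from the main clusters, and encode an H2A and an H2B. Hist3h2a had 23.0, 14.7, 12.0, 23.7 and 10.25 FPKM in KO libraries, against 42.5, 35.2, 39.8, 33.2 and 36.4 FPKM in WT libraries, with no overlap (change -1.18, SE 0.21, limma adjusted p = 0.000665). Its annotated exons share 708 bases with Trim17 on the same strand, so reads of the 2 genes could be assigned to either. Hist3h2ba had 10.35, 3.41, 3.65, 7.89 and 3.57 FPKM in KO libraries, against 16.3, 19.2, 12.8, 9.67 and 17.1 FPKM in WT libraries. CKO7 and WT5 were the libraries that crossed, and the change was -1.32 (SE 0.29, limma adjusted p = 0.00296).

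Hist2h2be, an H2B gene on chromosome 3 with an annotated transcript of 2620 bases, was low in both groups. It had 1.92, 2.42, 2.80, 1.72 and 1.41 FPKM in KO libraries, against 4.93, 4.41, 4.32, 4.53 and 3.53 FPKM in WT libraries, with no overlap (change -0.82, SE 0.15, limma adjusted p = 0.000865). Hist4h4, the lone H4 gene on chromosome 6, reached 1 FPKM in 0 KO and 3 WT libraries and was not tested. Its values were 0.51, 0.38, 0.28, 0.35 and 0.27 FPKM in KO libraries and 1.30, 1.04, 0.93, 1.16 and 0.86 FPKM in WT libraries, and the 2 sets did not overlap. In the authors' deposited table, which kept counts for lower genes, Hist4h4 had a log2 fold change of -1.16 with an adjusted p of 0.000724, and all 6 genes of the reported set were lower.

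**Figure D2:**
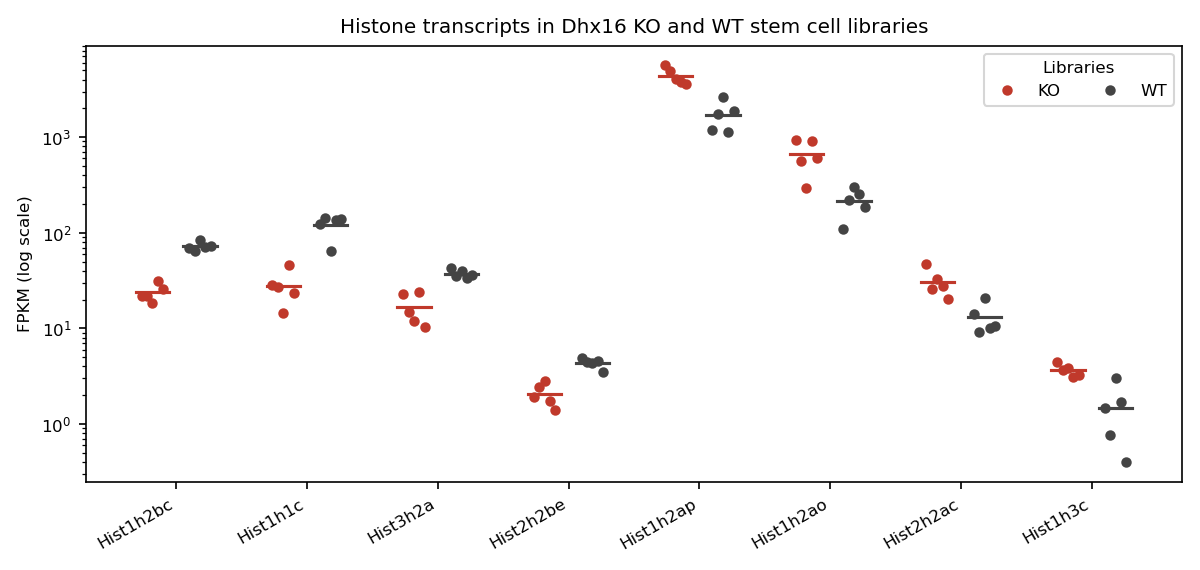
FPKM of 8 members in every library on a log axis, with KO points left of WT points for each gene and a line at each group's mean. The 4 genes on the left are reported to give polyadenylated RNA and lie lower in KO libraries. The 4 on the right lie higher in KO libraries, with CKO13 and WT4 crossing for Hist2h2ac and CKO9 and WT4 crossing for Hist1h2ao.

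The other falls came from genes outside the reported set. Hist1h2bg, an H2B gene with an annotated transcript of 618 bases, had 8.48, 12.2, 11.6, 12.1 and 9.40 FPKM in KO libraries, against 42.7, 46.5, 22.0, 25.3 and 32.1 FPKM in WT libraries. These did not overlap, and the change was -1.52 (SE 0.20, limma adjusted p = 0.000102). Hist1h2ac, an H2A gene with a long annotated transcript of 2482 bases, had 3.39, 2.79, 4.03, 2.01 and 1.57 FPKM in KO libraries, against 8.83, 10.6, 5.98, 6.09 and 5.06 FPKM in WT libraries (change -1.15, SE 0.22, limma adjusted p = 0.0012). Hist1h4n, an H4 gene, had 7.69, 14.2, 12.25, 3.83 and 10.3 FPKM in KO libraries, against 24.3, 34.5, 26.3, 40.1 and 22.5 FPKM in WT libraries (change -1.59, SE 0.29, limma adjusted p = 0.00114). All 5 KO libraries lay below all WT libraries for each of these genes. Of the 50-base words of Hist1h4n, 85.6% also occur in transcripts of other genes, so its level rests on how shared reads were placed.

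The smallest falls outside the reported set were those of Hist1h2be and Hist2h4, both with long annotated transcripts. Hist1h2be, an H2B gene, averaged 1.03 ± 0.32 FPKM in KO libraries and 2.04 ± 0.16 FPKM in WT libraries (SD, n = 5 each), with a change of -0.60 (limma adjusted p = 0.00489). It shares 496 exonic bases on the same strand with the H1 gene Hist1h1e, which averaged 5.92 ± 1.98 FPKM in KO libraries and 8.26 ± 2.05 FPKM in WT libraries and was not called. Hist2h4, an H4 gene, had 0.46, 0.57, 0.57, 0.23 and 0.35 FPKM in KO libraries, against 2.27, 1.76, 1.14, 1.07 and 1.29 FPKM in WT libraries. It reached the limit for testing through the WT libraries alone, so a member tested in this way had to be lower in KO libraries, and its change of -0.79 is given as a description.

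H2A genes made up 7 of the 15 rises. Of the H2A genes tested 41.2% rose, against 13.4% of all genes tested. Hist1h2ap (ENSMUSG00000094777, chr13:21833026-21833507, - strand) was the most abundant member. It had 5636, 4882, 4098, 3768 and 3582 FPKM in KO libraries, against 1175, 1757, 2619.8, 1129 and 1871 FPKM in WT libraries. The groups did not overlap, the means were 4393 ± 854 FPKM in KO and 1710.4 ± 608 FPKM in WT libraries (SD, n = 5 each), and the change was 1.41 (SE 0.23, limma adjusted p = 0.000382). From the same cluster, Hist1h2ao (ENSMUSG00000094248, chr13:21810465-21810944, + strand), had 924, 562, 295, 915 and 599 FPKM in KO libraries, against 108, 222, 301, 255 and 186 FPKM in WT libraries. CKO9 was just below WT4, and the other KO libraries were above every WT library (change 1.58, SE 0.35, limma adjusted p = 0.00397).

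Hist1h2ab had 141, 109, 89.45, 97.5 and 80.4 FPKM in KO libraries, against 20.3, 25.9, 66.7, 30.3 and 39.2 FPKM in WT libraries, without overlap (change 1.57, SE 0.28, limma adjusted p = 0.00108). Hist2h2ac, an H2A gene of the cluster on chromosome 3, had 47.4, 26.0, 33.0, 27.45 and 20.4 FPKM in KO libraries, against 14.1, 9.24, 20.85, 10.2 and 10.6 FPKM in WT libraries. The lowest KO library lay just below the highest WT library, WT4, and the change was 1.19 (SE 0.24, limma adjusted p = 0.00193). Hist1h2ak averaged 133 ± 53.4 FPKM in KO libraries and 45.8 ± 32.6 FPKM in WT libraries, a change of 1.64. Hist1h2af (change 1.88) and Hist1h2ag (change 1.53) were less stable than these. Hist1h2af missed the threshold without WT3, CKO7, CKO8 or CKO13 (change 1.75 to 1.83, limma adjusted p 0.0502 to 0.0567). Hist1h2ag missed it without any 1 of 7 libraries, WT2, WT3, WT5, WT6, CKO7, CKO8 and CKO12 (change 1.29 to 1.48, limma adjusted p 0.0579 to 0.0683).

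The H2A transcripts are close copies of each other. Of the 50-base words of Hist1h2ap and Hist1h2ao, 93.1% and 93.5% also occur in transcripts of other genes, so the split of reads between them is uncertain. Over the family, 13 of the 15 rises and 1 of the 10 falls came from the 34 members in which 50% or more of the words were shared. The 33 members with fewer shared words held 2 rises, of Hist1h3c and Hist1h4d, and 9 falls. Over the 23 tested the median change was -0.45 and 39.1% fell, near the 36.4% of all genes tested. Rises were 8.7% of these 23 and 44.8% of the tested members with 50% or more shared words, against 13.4% of all genes tested. The H2A rises were all in the set with 50% or more. Hist1h4d, with 10.2% of its words shared, averaged 20.6 ± 3.45 FPKM in KO libraries and 13.9 ± 5.97 FPKM in WT libraries. In 17 of the 18 H2A genes a short gene model annotated as a miRNA lies on the opposite strand of the exon, and the strand setting of the counting is not given in the sources used here.

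Of the 8 H2A genes not called, Hist1h2ah was the most abundant, and 1 library, CKO12, decided its call. It had 1450.4, 1134, 1742, 151 and 952 FPKM in KO libraries, against 578, 336, 694, 295 and 487 FPKM in WT libraries. CKO12 lay below every WT library while the other 4 KO libraries lay above all of them. Its change was 0.88 (limma adjusted p = 0.279) with all libraries and 1.5 (limma adjusted p = 0.00119) without CKO12. Hist1h2ad showed the same order, with 8.23 FPKM in CKO12 and 107 to 303 FPKM in the other KO libraries, against 57.7 to 84.1 FPKM in WT libraries. The pair Hist2h2aa1 and Hist2h2aa2, whose 50-base words are all shared with other genes, averaged 115 ± 22.1 and 173 ± 72.2 FPKM in KO libraries and 139 ± 11.4 and 153 ± 19.2 FPKM in WT libraries, and neither was called.

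Among the H3 genes 5 of the 11 tested rose and 0 fell, by limma at an adjusted p under 0.05. Shares over all genes tested were 13.4% and 36.4%. At an unadjusted p under 0.05 there were 2 H3 genes lower, and the authors' deposited table has 0. Without CKO7, CKO8 or CKO9 3 rises were left. Hist2h3b had 30.1, 20.8, 17.4, 22.3 and 17.6 FPKM in KO libraries, against 11.1, 5.35, 15.9, 9.62 and 5.94 FPKM in WT libraries. The KO libraries all lay above the WT libraries, and the change was 1.17 (SE 0.26, limma adjusted p = 0.00297). Of the words of Hist2h3b, counted as for the H2A genes, 100% also occur in transcripts of other genes. Its level therefore rests on how shared reads were placed. The antisense gene Gm20628 also overlaps 488 of its exonic bases on the opposite strand, and the part of either in these values was not tested. Hist1h3c had a lower level and groups just as separate, with 4.45, 3.68, 3.88, 3.12 and 3.28 FPKM in KO libraries, against 1.47, 0.77, 3.01, 1.69 and 0.40 FPKM in WT libraries (change 1.01, SE 0.24, limma adjusted p = 0.00421). Hist2h3c2 averaged 6.91 ± 2.39 FPKM in KO libraries and 2.52 ± 1.3 FPKM in WT libraries (change 1.2). Hist1h3b (change 0.67) missed the threshold without WT2, WT6, CKO7, CKO8 or CKO9 (limma adjusted p 0.0546 to 0.0626), and Hist1h3g (change 0.55) without WT3, WT4, WT5, CKO7, CKO8, CKO9 or CKO13 (limma adjusted p 0.0609 to 0.094). Hist1h3e, the most abundant of the 6 H3 genes not called, averaged 4.82 ± 1.67 FPKM in KO libraries and 6.68 ± 1.09 FPKM in WT libraries, and without CKO7 its change of -0.56 passed (limma adjusted p = 0.0368).

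Calls among H4, H2B and H1 genes were mixed or few. Falls were 22.2% of the H4, 45.5% of the H2B and 25% of the H1 genes tested, against 36.4% of all genes. Of 9 H4 genes tested 2 rose and 2 fell, and the rises of Hist1h4d (change 0.60) and Hist1h4b (change 1.07) both depended on single libraries. Hist1h4d missed the threshold without WT2, WT5, WT6, CKO7, CKO8 or CKO12 (limma adjusted p 0.0565 to 0.0897). Hist1h4b, listed at 0 in WT2, WT4 and WT5, missed it without any 1 of those (limma adjusted p 0.0598 to 0.0649). It reached the limit for testing in 4 KO libraries and 1 WT library. It was therefore not tested without WT3, CKO7, CKO8, CKO12 or CKO13. In the authors' deposited table Hist1h4b was not called (adjusted p 0.0949). Hist1h4i, the most abundant H4 gene, was not called, at 35.9 ± 2.76 FPKM in KO libraries and 40.9 ± 8.13 FPKM in WT libraries (limma adjusted p = 0.319). The count of H4 falls was 1 without any 1 of WT3 to WT6. Hist2h4 reached the limit in the 5 WT libraries alone, so it was not tested once any WT library was left out. Hist1h4m had the lowest change of all tested members (-2.33, SE 1.13) and was not called (limma adjusted p = 0.118), and it was listed at 0 in CKO7, CKO9, CKO13 and WT2. Of 11 H2B genes tested 5 fell and 1, Hist1h2bj, rose (change 0.70). Hist1h2bj averaged 5.06 ± 2.0 FPKM in KO libraries and 2.58 ± 0.71 FPKM in WT libraries and missed the threshold without WT2, WT4, WT5, CKO7, CKO8, CKO9 or CKO13 (limma adjusted p 0.0648 to 0.0868). Hist1h2bk, the most abundant H2B gene not called, averaged 3.32 ± 1.31 FPKM in KO libraries and 2.44 ± 2.09 FPKM in WT libraries, and passed without WT4 (change 0.76, limma adjusted p = 0.0319). Of 4 H1 genes tested Hist1h1c fell, and Hist1h1b averaged 7.92 ± 2.38 FPKM in KO libraries and 8.13 ± 3.22 FPKM in WT libraries.

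Summed over the family, the level was set by H2A. All members together came to 10488, 8517, 7909.9, 6352 and 6409.8 FPKM in KO libraries, against 3205, 3578, 5464, 2798 and 3787 FPKM in WT libraries, a ratio of means of 2.11. Hist1h2ap alone held 51.8% to 59.3% of these sums in KO libraries and 36.7% to 49.4% in WT libraries, and without it the ratio was 1.72. H2A sums averaged 7683 ± 1693 FPKM in KO libraries and 3327 ± 1019.7 FPKM in WT libraries, and H3 sums averaged 59.6 ± 13.4 FPKM in KO libraries and 37.4 ± 12.4 FPKM in WT libraries (SD, n = 5 each). H2B sums lay the other way, at 62.7 ± 6.07 FPKM in KO libraries and 145 ± 14.4 FPKM in WT libraries. So did H1 sums, at 44.9 ± 11.4 FPKM in KO libraries and 140 ± 29.6 FPKM in WT libraries. Of the H1 sums, Hist1h1c alone made up 27.8 ± 11.4 FPKM in KO libraries and 121 ± 32.1 FPKM in WT libraries. H4 sums overlapped between the groups, at 85.2 ± 6.28 FPKM in KO libraries and 117 ± 21.6 FPKM in WT libraries. The genes reported to give polyadenylated RNA summed to 51.7 to 110 FPKM in KO libraries and 207 to 268 FPKM in WT libraries. They include Hist1h1c and Hist1h2bc, so the lower sums of H1, H2B and the reported set overlap in genes and are not separate results. These sums are given without a test.

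**Figure D3:**
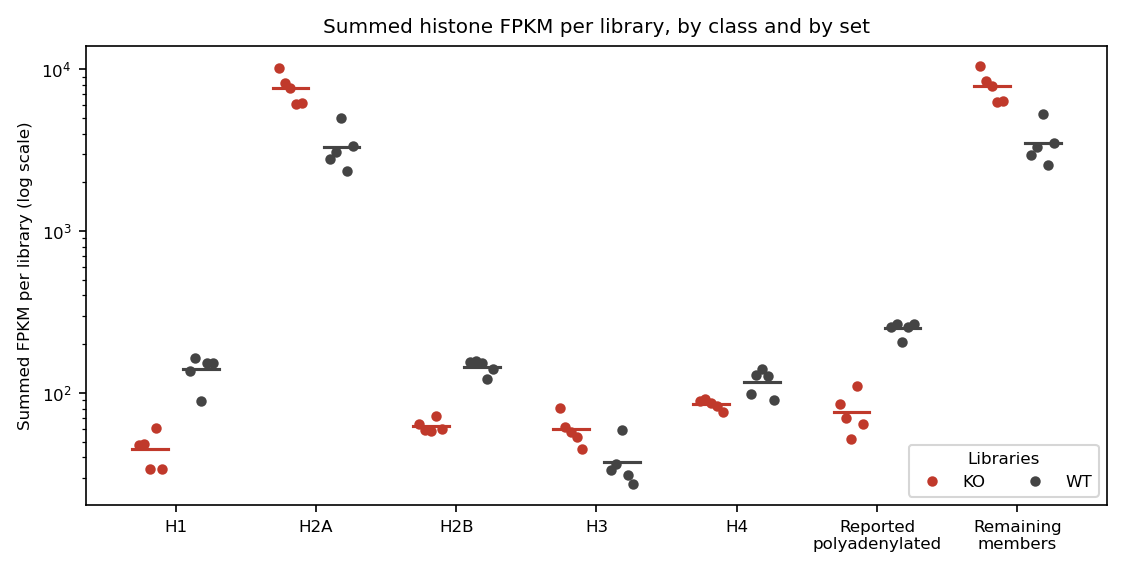
Summed FPKM per library on a log axis for each histone class, for the genes reported to give polyadenylated RNA and for the remaining members, with KO points left of WT points and a line at each mean. H2A and remaining members lie higher in KO libraries, H1, H2B and the reported set lie lower without overlap, and WT4 is the highest WT library for H2A and the lowest for H1. The reported set shares Hist1h1c with H1 and Hist1h2bc with H2B.

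Calls differed in number between long and short transcripts. Leaving out Hist2h4, which was tested through WT libraries alone, 13 members with an annotated transcript of 1000 bases or more were tested, of which 2 rose and 6 fell, and the median change was -0.48. Of the 38 tested with shorter transcripts 13 rose and 3 fell, and the median change was 0.47. Shares over all genes tested were 13.4% higher and 36.4% lower. For 15 members the annotated transcript ends fewer than 16 bases after the stop codon, too early to hold a stem-loop, and these were set aside for both signals. Of the rest, again without Hist2h4, 6 tested members with AATAAA near the transcript end had 0 rises by limma, 4 falls and a median of -1.002. The number of rises was also 0 at an unadjusted p under 0.05 and in the authors' deposited table. The 4 falls were Hist1h1c, Hist2h2be, Hist3h2a and Hist3h2ba, all genes of the reported set, so they are not a separate result. Hist1h2ae and Hist1h2br, which also have the signal, were not called. The 34 tested without AATAAA had 13 rises, 5 falls and a median of 0.26. With Hist2h4 counted, members with a stem-loop in the window had 11 rises and 8 falls of 35 tested, and the 6 tested without one had 2 rises and 2 falls. Across the 52 tested members the change had a Spearman correlation with annotated transcript length of -0.52, given as a description because the members share libraries and sequence. FPKM divides by length, and how short transcripts were corrected for fragment size is not given in the sources used here.

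**Figure D4:**
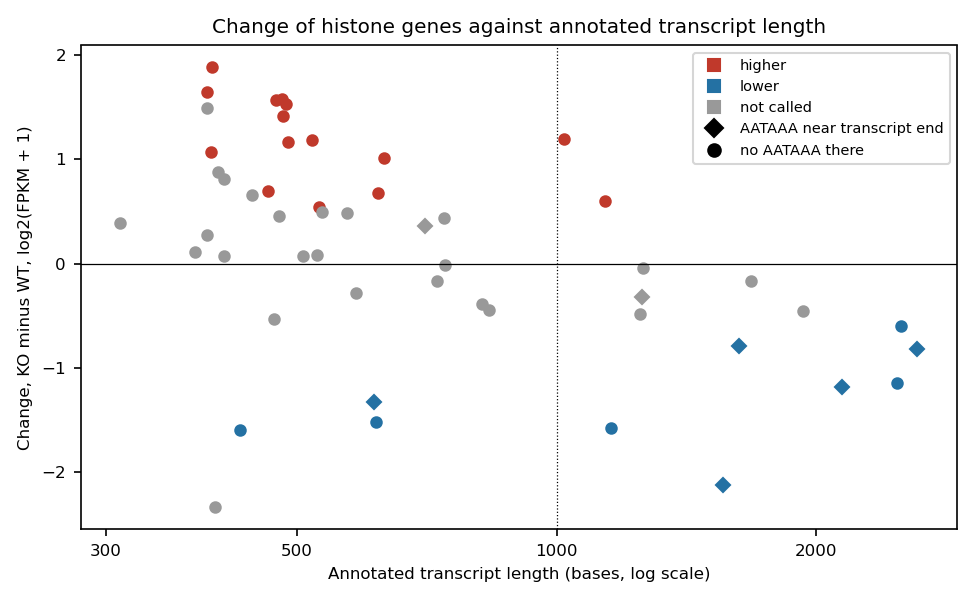
Change of each of the 52 tested members, KO minus WT on the log2(FPKM + 1) scale, against the length of its annotated transcript on a log axis; colours give the call, diamonds mark AATAAA near the transcript end and the dotted line marks 1000 bases. Rises crowd among short transcripts without the signal and 7 of the 10 falls lie right of the line, Hist2h4 among them.

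The genes are packed in clusters in which an H2A and an H2B gene often start back to back. There were 12 such head-to-head pairs, with 176 to 306 bases between their starts, and 7 had both genes tested. In 3 pairs both genes were called: Hist1h2ac and Hist1h2bc fell together, Hist1h2ag and Hist1h2bj rose together, and Hist2h2ac rose while Hist2h2be fell. The stretches that separate the first and the third of these pairs are printed because they hold both starts, from RefSeq (GRCm38.p6), as the promoter window of the H2A gene on the minus strand. Capitals mark CCAAT and TATAAA on either strand.
Hist1h2ac: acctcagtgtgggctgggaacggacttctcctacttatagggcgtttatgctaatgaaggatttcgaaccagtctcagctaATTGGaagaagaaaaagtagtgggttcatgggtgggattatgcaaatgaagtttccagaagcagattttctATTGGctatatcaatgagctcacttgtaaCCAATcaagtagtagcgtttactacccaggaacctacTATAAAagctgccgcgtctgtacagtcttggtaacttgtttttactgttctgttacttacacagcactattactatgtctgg
Hist2h2ac: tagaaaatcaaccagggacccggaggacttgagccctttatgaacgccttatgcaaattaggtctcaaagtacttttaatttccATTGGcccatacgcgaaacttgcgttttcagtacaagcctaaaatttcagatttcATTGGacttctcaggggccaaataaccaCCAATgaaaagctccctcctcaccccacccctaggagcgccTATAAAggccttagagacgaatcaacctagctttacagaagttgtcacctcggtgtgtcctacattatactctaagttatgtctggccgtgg
The windows are chr13:23683910-23684209 and chr3:96220831-96221130, and each holds 3 matches to CCAAT and 1 to TATAAA. The starts of Hist1h2ac and Hist1h2bc lie 251 bases apart and those of Hist2h2ac and Hist2h2be 239 bases apart. Of the 61 members with a RefSeq window, 52 held CCAAT and 34 held TATAAA, against 37.4% and 13.6% of all 32851 windows of that length. A match is a description of letters and shows no binding. In the remaining pairs with a call, Hist1h2bg fell while its partner Hist1h2ae, at 182 ± 66.0 FPKM in KO libraries and 147 ± 74.9 FPKM in WT libraries, was not called, and Hist1h2ap and Hist1h2ak rose while their partners Hist1h2br and Hist1h2bn were not called. Hist1h2ao rose while its partner Hist1h2bq, at 0.22 ± 0.35 FPKM in KO libraries and 1.26 ± 0.75 FPKM in WT libraries (SD, n = 5 each), was too low to test. In the authors' deposited table Hist1h2bq is lower, with a log2 fold change of -2.06 and an adjusted p of 0.024, and Hist1h2ao is higher, with one of 1.99.

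Of 20 genes listed for histone gene transcription and pre-mRNA processing, 18 were tested, of which 10 rose and 1, the U7 component Lsm10, fell, with a median change of 0.33 (0 fell without CKO13 and 2 without WT6). Over all genes tested 13.4% rose and 36.4% fell. The 10 rises were all among the 14 tested genes for processing, Sm proteins and cap binding, while the 4 transcription genes Npat, Casp8ap2, Hinfp and Pou2f1 did not pass and had changes of -0.33 to 0.31. Slbp, the stem-loop binding protein, had 178, 194, 147, 178 and 141 FPKM in KO libraries, against 107, 91.0, 114, 73.0 and 87.3 FPKM in WT libraries. All KO libraries lay above the WT libraries (change 0.83, SE 0.14, limma adjusted p = 0.000495). Npat, the coactivator of histone gene transcription, averaged 9.45 ± 2.49 FPKM in KO libraries and 7.27 ± 1.35 FPKM in WT libraries and was not called (limma adjusted p = 0.181), though it passed without CKO12 (change 0.48, limma adjusted p = 0.0151). The highest changes in the list were those of Snrpg (1.51), Snrpf (1.49) and Snrpe (1.39), Sm proteins that the U7 particle shares with the spliceosome.

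Of 8 genes for histone mRNA decay 3 fell, a share near the 36.4% of all genes tested that fell, and 0 rose by limma, with a median change of 0.09. At an unadjusted p under 0.05 the number higher was also 0. The authors' deposited table differs, with 5 of the 8 higher, against 17.1% of all its genes with an adjusted p. Zcchc6, a uridylyltransferase, averaged 38.8 ± 4.10 FPKM in KO libraries and 80.3 ± 18.6 FPKM in WT libraries (change -1.01, limma adjusted p = 0.000215). Xrn1, the 5' to 3' exonuclease, averaged 4.99 ± 0.85 FPKM in KO libraries and 8.28 ± 0.86 FPKM in WT libraries (change -0.64). Zcchc11, another uridylyltransferase, missed the threshold without WT2, WT4, WT5, CKO7, CKO12 or CKO13 (limma adjusted p 0.0549 to 0.112). Eri1, the exonuclease that trims the histone stem-loop, was at 22.5 ± 3.1 FPKM in KO libraries and 18.9 ± 2.1 FPKM in WT libraries and was not called.

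Among 15 histone chaperones and assembly factors 10 rose and 0 fell by limma, with a median change of 0.66. Shares over all genes tested were 13.4% and 36.4%. The number lower was also 0 at an unadjusted p under 0.05 and in the authors' deposited table. Nasp, which holds H3 and H4 before assembly, averaged 48.6 ± 7.36 FPKM in KO libraries and 22.5 ± 5.27 FPKM in WT libraries (change 1.10, limma adjusted p = 0.000327). Hat1, which acetylates new H4, rose by 1.0 and its partner Rbbp7 by 0.92. Of 15 S phase genes 13 rose, with a median change of 1.27, a movement already known from earlier results of these data. Ccne1, the G1/S cyclin, averaged 52.5 ± 9.16 FPKM in KO libraries and 8.85 ± 5.02 FPKM in WT libraries (change 2.58, limma adjusted p = 0.000187). The ribonucleotide reductase genes Rrm2 and Rrm1 rose by 1.98 and 1.67.

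**Figure D5:**
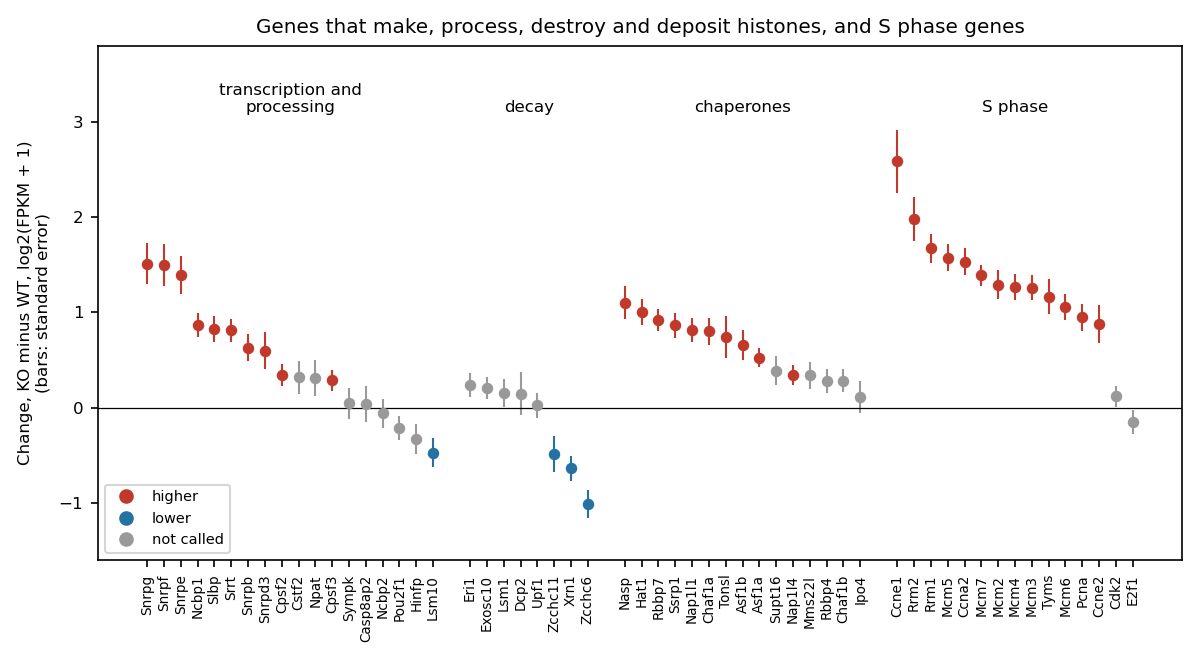
Change of each tested gene for histone transcription and processing, histone mRNA decay, histone chaperones and S phase, KO minus WT on the log2(FPKM + 1) scale; points are estimates, bars are standard errors and colours give the call. In S phase 13 of 15 genes are called higher, against 13.4% of all genes tested. Among decay genes 3 of 8 are called lower, near the share of 36.4% over all genes tested.

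The authors' deposited table, made from counts, gave 18 members higher and 12 lower in KO, against 17.1% and 11.5% of the 23405 genes with an adjusted p, and gave no adjusted p for 7. In that table members were lower more often than all genes, while by limma they were lower less often (19.2% against 36.4%). Of the members called here, 23 had the same direction and call there, 13 higher and 10 lower, and 0 had the opposite. In the authors' deposited table Hist1h2bc had a log2 fold change of -1.19 and Hist1h2ap one of 1.71. Hist1h2ah, not called here, is higher in that table, with a log2 fold change of 1.49 and an adjusted p of 0.0105.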

How the data were processed

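RNA of sorted stem cells was measured in 5 KO and 5 WT libraries. The submitters' processing notes list Bowtie 0.12.9, Cufflinks 2.1.1, HTSeq and mm10 without saying which made which value. The deposited library columns carry no unit in their header and were taken as FPKM made by the authors, from their 2 decimals, their sums and their relation to transcript length. Per the file headers, the authors' DESeq2 gave the mean normalized count (a signal), the log2 fold change, its Wald statistic (a score) and the p-value and adjusted p-value. Column names give the group but not the titled sample, and they are used here as library names. Depth per library is unknown, so no counting intervals are given.

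From the FPKM, log2(FPKM + 1) was fitted with limma 3.58.1 (trend and robust, no covariate) over the 13448 genes that reached 1 FPKM in 5 libraries or more, with Benjamini-Hochberg adjustment over all of them and calls under 0.05. A limit of 10 FPKM would leave 23 of the 67 members. The fit was tested on simulated data. Stem-loops, AATAAA and lengths come from the longest coding transcript in GENCODE M21, shared 50-base words from all its transcripts on either strand, and promoter windows from RefSeq.

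Members and lists were chosen with earlier results of these data known. Named were every called member, the reported polyadenylated set, the most abundant uncalled member of each class, Slbp, Npat and the 3 called genes of each pathway list with the largest change. Hist1h1e, Hist1h2ad, Hist1h2ae, Hist1h2bn, Hist1h2bq, Hist1h2br, Hist1h4m, Hist2h2aa1, Hist2h2aa2, Casp8ap2, Hinfp, Pou2f1, Lsm10 and Eri1 were named after their values were seen. Alternatives were pseudocounts of 0.1 and 5, 3 other filters, 3 other scalings, limma without trend and robust, library quality weights, cell type scores as covariates and leaving out libraries. Leaving out the 2 libraries highest in bone matrix or in granulocyte genes was chosen after seeing the data. B and T lymphocyte lists had 1 tested gene each, of which the B gene fell.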

Additional observations from a re-analysis of the deposited data

Results flagged for a closer look

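In 3 of 64 groups checked (each named member, and Dhx16, in the 5 KO or the 5 WT libraries), 1 library stood further from the others than Dixon's limit of 0.71 of the range allows. Chance marks about 1 in 20 groups, or 5%. All 3 were the library WT4. Hist1h1c had 64.74 FPKM in WT4 and 122.93 to 141.54 FPKM in the other WT libraries. Hist1h2ag had 188.99 FPKM in WT4 and 38.84 to 51.15 FPKM in the other WT libraries. Hist1h2ak had 102.74 FPKM in WT4 and 23.5 to 39.35 FPKM in the other WT libraries. WT4 was thus low for a linker histone gene lower in KO libraries and high for 2 H2A genes higher in KO libraries. Its FPKM sum of 957520 was the highest of the WT libraries, and the part of that sum in these values was not tested.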

How the results depend on the processing

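No paired analysis was possible because the library columns carry no replicate number shared between the groups. With any single library left out, 8 to 14 members were called higher and 9 to 13 lower, of the reported polyadenylated set 5 were lower throughout, and of the remaining members 8 to 14 were higher and 4 to 8 lower. By class these ranges were 1 for H1 lower, 5 to 8 and 2 to 3 for H2A higher and lower, 0 to 1 and 5 for H2B, 3 to 5 for H3 higher, and 0 to 2 and 1 to 3 for H4. For processing genes they were 7 to 12 higher and 0 to 2 lower, for decay genes 2 to 3 lower, for chaperones 10 to 13 higher and for S phase genes 13 higher. The medians ranged from -1.54 to -1.20 for the reported set and from 0.22 to 0.50 for the remaining members, and Dhx16 from -0.87 to -0.72. Hist1h1b, near 0, ranged from -0.13 to 0.15 and was positive without WT3, WT4, CKO12 or CKO13, at 0.11 with upper-quartile scaling, 0.22 with median-of-ratios scaling, 0.14 with quality weights and 0.10 without CKO13 and WT6.

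With the erythroid covariate 0 members, chaperones, decay, processing or S phase genes were called, Dhx16 was at -0.82 (limma adjusted p = 0.409), the median of the reported set was -1.52 and that of the remaining members 0.074, and Hist1h4b (-0.44), Hist1h2bk (-0.16), Hist1h4i (0.074) and Zcchc11 (0.024) changed sign. With bone matrix and granulocyte covariates 4 H2A, 0 H2B and 1 H4 members rose, and the median of the remaining members was -0.033. The 10 FPKM limit gave 9 higher and 6 lower members (background 21.1% and 31.6%), all 9 and 2 of them outside the reported set, with 1 H2A lower, 0 H2B higher and 3 lower, 1 H3 higher, 1 H4 higher and 1 lower, and a median of 0.88 for the remaining members. No filter gave 3 H3 and 0 H4 higher, 0 processing genes lower and a median of 0.11, and a filter on the mean gave 2 H2B higher and 1 H4 lower. Equal totals gave 9 remaining members lower, 0 H2B and 1 H4 higher and 2 processing genes lower, and median-of-ratios gave 0 processing genes lower and Hist1h4i at 0.093. With a pseudocount of 5 the median of the reported set was -1.01. Without CKO13 and WT6, 0 H2B and 0 H4 members were higher, 1 H4 lower and 2 processing genes lower. Without WT3 and WT5, 9 members were higher, all outside the reported set, with 4 H2A, 0 H2B and 0 H4 higher and 1 H4 lower. The cause was not tested for any of these. The all-gene median was -0.26 as deposited, -0.38 with equal totals, -0.15 with upper-quartile and -0.04 with median-of-ratios scaling, and of the genes called 26.9%, 18.1%, 39.9% and 52.1% were higher. Of 10 falls, all passed in every alternative that tested them except the erythroid covariate. These include Hist2h4, which was tested through WT libraries alone in the main fit. Levels of near-identical genes, unknown depth and 5 libraries a group limit the precision.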
